A study of Mus musculus with 6 samples.

Results

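The genes followed here are 48 genes known for their expression in microglia, the resident macrophages of the brain: surface receptors, immune signalling genes, lysosomal genes and myeloid transcription factors. They were chosen by name and not by a threshold on the values measured here, although earlier results of these data were known when the list was made. All 48 were present among the 33460 different genes in the data, 2 of them under an older symbol (*Spi1* as *Sfpi1* and *Syk* as *Sykb*). The libraries were made from the brains of 3 NG2-DsRed/Pdgfrb-eGFP mice at postnatal day 6. Every animal carried both reporters, DsRed under the promoter of NG2 (*Cspg4*) and eGFP under that of *Pdgfrb*, and no genotype or treatment was compared. From each brain, 1 side was dissociated, and the cells positive for both reporters were sorted by FACS (the mural cells, 3 libraries). The other side was used to isolate microvascular fragments with anti-CD31 beads (the fragments, 3 libraries). This is a mixed preparation of endothelial cells, mural cells and any other cells taken along in the isolation. The sort selects on the activity of 2 promoters and leaves out mural cells with weak DsRed, such as part of the vascular smooth muscle cells.

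Microglia enter the brain during embryonic life and depend on signalling through CSF1R for their survival. They survey the tissue with motile processes, sense fractalkine and extracellular nucleotides, and take up debris, synapses and dying cells, for which they carry phagocytic receptors and a large lysosomal compartment. In the early postnatal brain many of them lie against growing vessels. Perivascular macrophages, which sit in the space around larger vessels, share many of these genes. A shared gene does not by itself tell the 2 cell types apart, although some on the list, such as *Sall1*, mark microglia among macrophages.

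The deposited values are FPKM (mapped fragments scaled for transcript length and library size), and are given below in the order of replicates 1, 2 and 3. The step size of low FPKM values gave the number of read pairs behind the FPKM, called depth here. The paper gives a far larger number of sequenced reads for every sample, so depth here is not the number sequenced. The depth of the fragment libraries was 4.23 to 4.65 M read pairs. That of the mural cell libraries was 0.744 to 1.78 M. A sum over protein-coding genes gave more, 5.44 to 5.95 M and 1.04 to 2.37 M. It takes the longest transcript as the length of each gene, which counts too many read pairs for genes with shorter transcripts. A gene with a low FPKM therefore rests on few read pairs in the mural cells. The sort was visible in the genes of mural cells: all 12 mural markers rose, with a median of 910% of the fragment level. Among them were *Pdgfrb* (54.8, 46.8 and 34.6 FPKM in the fragments against 461, 474 and 401 in the mural cells) and *Cspg4*, the genes whose promoters drive the reporters. The 12 endothelial markers, of which 2 fell, were at a median of 65.2% of the fragment level in the mural cells. Astrocyte markers stood apart in mural cell replicate 3, where their summed FPKM was 809, against 263 and 224 in replicates 1 and 2.

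The question was how the level of microglia transcripts in the sorted mural cells compared with that in whole microvascular fragments. The 2 preparations were made separately, with different digestion, and neither was derived from the other. Genes said here to fall or rise are lower or higher in the mural cells than in the fragments. Of the 48 genes, 45 (93.8%) were lower in the mural cells (limma on log2(FPKM + 1), Benjamini-Hochberg adjusted p under 0.05 over all 14801 genes tested, with a ratio of mean FPKM under 0.5), against 10.1% of all genes tested. The gene *Adap2* was higher, as were 6.43% of all genes tested, and 2 genes, *Olfml3* and *Tlr4*, were not called. In 46 of the 48, every mural cell library was below every fragment library, which held for 24.5% of all genes tested. All 48 passed the filter of at least 1 FPKM in at least 3 libraries, all 48 had at least 1 FPKM in all 3 fragment libraries, and 38 also had it in all 3 mural cell libraries. *Cd14* and *Slc2a5* reached 1 FPKM in no mural cell library. They passed the filter through the fragments alone, so a call as higher was not open to them, and both are counted among the 45. In bulk RNA, fewer cells of a type and less RNA per cell cannot be told apart.

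The size of the difference was similar for many of the genes. The relative level, here the mean FPKM in mural cells as a percent of that in fragments, had a median of 8.94% over the 48 genes and of 94.3% over all genes tested. It lay under 10% for 30 genes (62.5% of the 48, against 4.26% of all genes tested) and between 10% and 20% for 12 (25.0% against 2.2%). It was 20% or more for the remaining 6, *Mertk*, *Inpp5d*, *Lyn*, *Olfml3*, *Tlr4* and *Adap2*. The summed FPKM of the 48 genes was 3978, 3952 and 4553 in the fragments and 585, 602 and 571 in the mural cells. For the 45 lower genes it was 3876, 3860 and 4465 against 429, 383 and 432. *Adap2* alone accounted for 131, 192 and 108 FPKM of the sum in the mural cells.

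**Figure D1:**
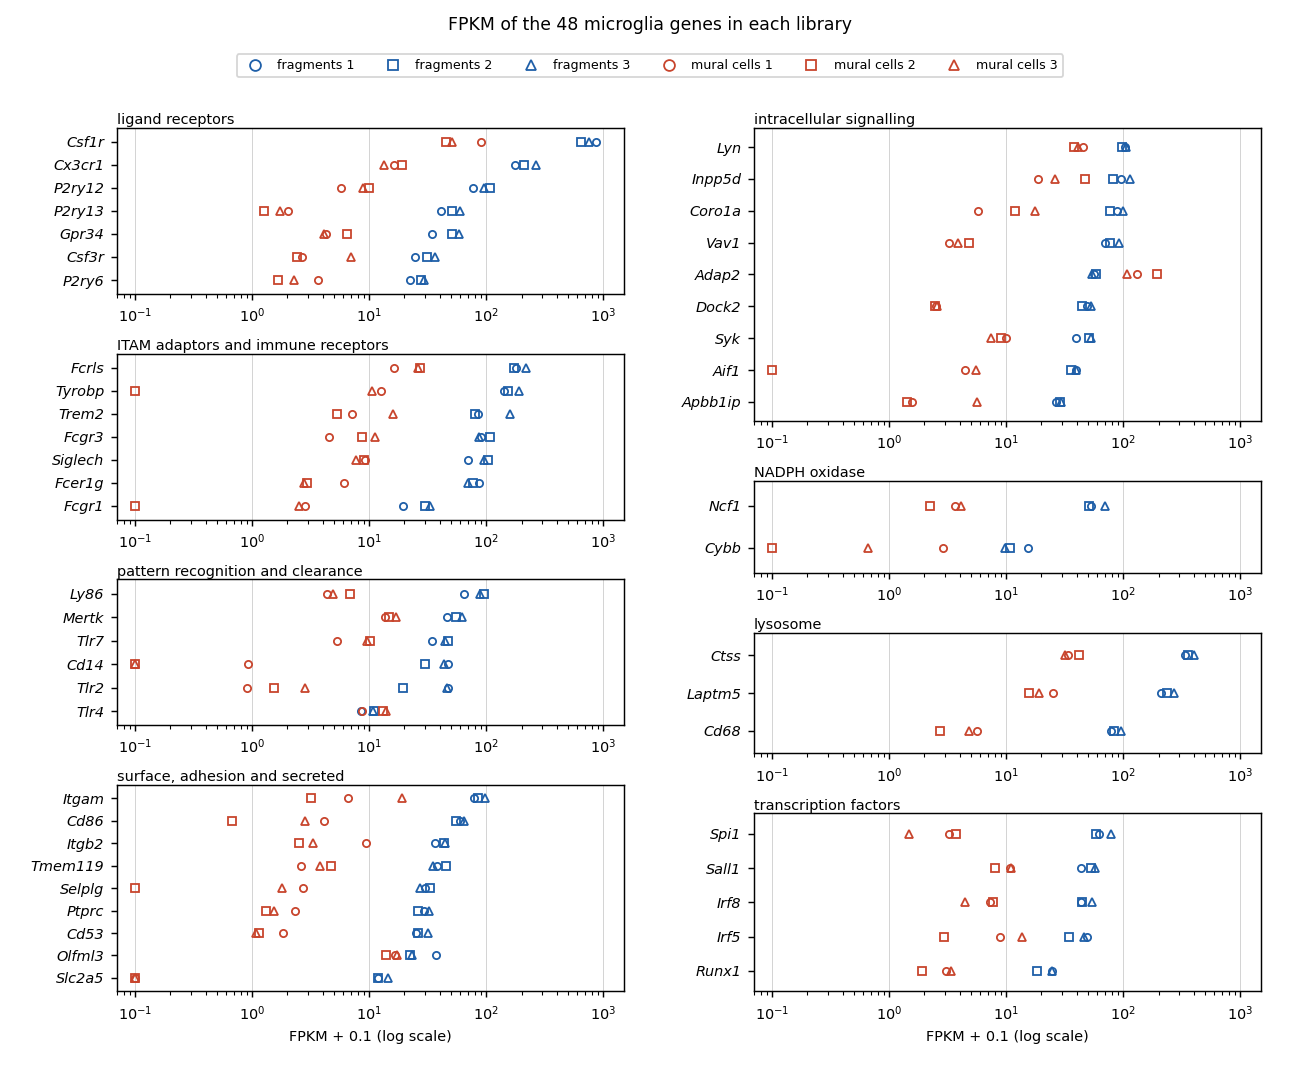
FPKM + 0.1 (log scale) of each of the 48 microglia genes in the 3 fragment libraries (blue) and the 3 mural cell libraries (red), with 1 symbol per replicate and 1 panel per role. The blue symbols stand to the right of the red ones in 46 genes, they mix for *Tlr4* and the order is turned for *Adap2*; symbols at the left edge are values listed at 0.

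Over all genes tested, 1493 were lower in the mural cells and 952 were higher. The counts were 1105 and 1185 with quantile normalization, which shifted the median log2 fold change of all genes by 0.12, and the number of lower genes was 607 to 702 when any 1 fragment library was left out. Of the 48 genes, 45 were lower with quantile normalization, and 43 of the 46 that then passed the filter were lower without 1 fragment library.

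**Figure D2:**
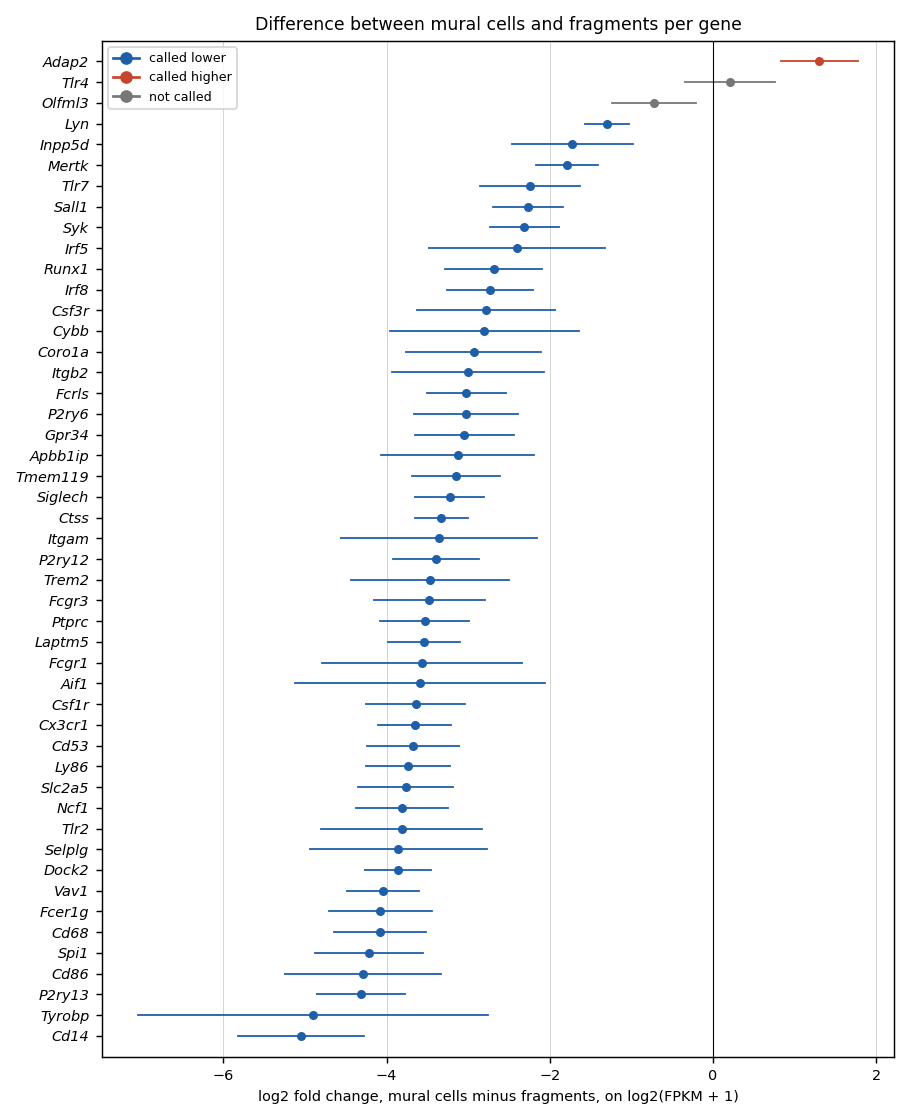
Log2 fold change (mural cells minus fragments, on log2(FPKM + 1)) of each of the 48 genes with its 95% confidence interval from limma, ordered by size. The points of 45 genes are blue (called lower), the interval of *Tlr4* spans 0, that of *Olfml3* runs from -1.24 to -0.21 without a call, and *Adap2* stands at 1.30.

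All 5 transcription factors on the list fell, to a median of 13.5% of the fragment level. *Spi1* encodes PU.1, the factor on which the development of macrophages and microglia depends. It lies on chromosome 2 (90922547 to 90955913, NCBIM37) and had 61.9, 58.3 and 77.7 FPKM in the fragments and 3.13, 3.64 and 1.38 in the mural cells. The groups were far apart, with a fold change of -4.22 on the log2 scale (standard error 0.28; limma, adjusted p = 0.000134). *Sall1*, a factor that marks microglia among macrophages, was at a higher relative level than *Spi1*: 43.2, 52.9 and 57.4 FPKM against 10.7, 7.98 and 10.8, or 19.2%. In read pairs *Sall1* had 994, 1132 and 1348 against 96, 30 and 43. The exact interval of its level pooled over libraries, 16.8% to 23.1%, lies above that of *Cx3cr1* given below. Both intervals cover counting error only and not the spread between libraries. *Irf8* and *Irf5*, interferon regulatory factors of myeloid cells, had 43.2 to 53.7 and 34.0 to 48.8 FPKM in the fragments and 4.32 to 7.62 and 2.85 to 13.6 in the mural cells. *Runx1*, a factor of blood cell formation, had 18.2 to 24.6 FPKM against 1.80 to 3.26. The exons of *Irf5* overlap those of *Tnpo3* on the opposite strand, which had 27.7, 31.5 and 31.8 FPKM in the fragments and 23.8, 30.6 and 58.8 in the mural cells, and the strand setting of the counting is not given in the sources used here.

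Because PU.1 binds a purine-rich motif and is itself on the list, the sequence before the start sites was examined. RefSeq promoter entries (from its GRCm38.p6 table) were matched for 35 of the 48 genes. The letters GAGGAAGT, a common form of the PU.1 motif, were searched on both strands in the 250 bases before each start, for every start site of a gene, and were found for 2 of the 35 genes (5.71%, against 2.79% of the 27025 genes with an entry). The shorter core GAGGAA, which is contained in GAGGAAGT, was found for 18 of the 35 (51.4%, against 25.9% of all). Matching letters are a description of the sequence and not of binding. The promoters shown are those of both genes with the full motif, *Inpp5d* and *Vav1*, of 3 genes with the core from different roles (*Ctss*, *Trem2* and *Itgam*), and of *Adap2*, the gene that was higher in mural cells, whose window was shortened to 193 bases at its annotated start and holds no core. Each sequence is written from 5′ to 3′ on the gene's strand and was placed on NCBIM37 by exact match. Capitals mark the motif or core, and TTCCTC is the core on the opposite strand.
Inpp5d, chr1:89516637-89516886 (+ strand): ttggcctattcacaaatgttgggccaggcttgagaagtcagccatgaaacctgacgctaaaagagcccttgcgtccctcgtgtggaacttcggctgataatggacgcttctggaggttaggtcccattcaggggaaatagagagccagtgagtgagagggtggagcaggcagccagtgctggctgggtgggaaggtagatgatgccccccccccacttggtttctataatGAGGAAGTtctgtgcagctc
Vav1, chr17:57418273-57418522 (+ strand): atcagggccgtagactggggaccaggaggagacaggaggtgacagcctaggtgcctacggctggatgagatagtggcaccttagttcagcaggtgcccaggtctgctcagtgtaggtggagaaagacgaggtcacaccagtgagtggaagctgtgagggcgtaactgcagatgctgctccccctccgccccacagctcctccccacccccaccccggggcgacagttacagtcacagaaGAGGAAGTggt
Ctss, chr3:95330458-95330707 (+ strand): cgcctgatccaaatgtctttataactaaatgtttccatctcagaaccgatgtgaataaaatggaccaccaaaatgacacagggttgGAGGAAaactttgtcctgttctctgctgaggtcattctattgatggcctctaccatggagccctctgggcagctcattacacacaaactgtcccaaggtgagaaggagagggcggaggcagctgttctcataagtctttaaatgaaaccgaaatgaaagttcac
Trem2, chr17:48485476-48485725 (+ strand): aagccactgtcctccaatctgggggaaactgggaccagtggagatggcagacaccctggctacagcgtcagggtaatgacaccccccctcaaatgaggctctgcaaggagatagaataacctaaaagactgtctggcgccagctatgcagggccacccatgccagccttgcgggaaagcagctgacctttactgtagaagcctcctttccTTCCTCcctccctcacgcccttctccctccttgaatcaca
Itgam, chr7:135205904-135206153 (+ strand): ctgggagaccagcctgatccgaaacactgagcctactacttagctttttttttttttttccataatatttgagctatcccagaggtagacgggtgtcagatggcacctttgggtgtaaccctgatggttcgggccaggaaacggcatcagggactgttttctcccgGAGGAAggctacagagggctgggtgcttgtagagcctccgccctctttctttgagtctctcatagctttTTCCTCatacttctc
Adap2, chr11:79967414-79967606 (+ strand): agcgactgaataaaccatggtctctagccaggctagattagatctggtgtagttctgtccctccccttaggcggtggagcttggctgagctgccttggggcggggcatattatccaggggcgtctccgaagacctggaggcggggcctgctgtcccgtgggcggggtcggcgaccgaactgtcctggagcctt

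In *Inpp5d* 14 bases and in *Vav1* 5 bases lie between the core GAGGAA of the motif and the annotated start. The 2 genes with the full motif both fell but were at different relative levels. *Vav1* had 69.0, 77.5 and 90.9 FPKM in the fragments and 3.14, 4.73 and 3.76 in the mural cells (4.90%), whereas *Inpp5d* had 95.8, 82.2 and 114 against 18.5, 47.2 and 26.1 (31.4%).

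The 7 receptors for soluble ligands all fell, with relative levels between 3.12% and 12.8% and a median of 8.67%. *Csf1r* encodes the receptor for CSF1 and IL-34 on which microglia depend, and lies on chromosome 18 (61265226 to 61291803, NCBIM37). It was the most abundant of the 48 genes in the fragments, with 860, 649 and 747 FPKM, and had 89.9, 44.8 and 50.5 FPKM in the mural cells. By mean FPKM it ranked 24 among the 14801 genes tested in the fragments and 1443 in the mural cells. The log2 difference was -3.64 (standard error 0.26; limma, adjusted p = 0.000166). *Csf1r* lies 20.5 kb from *Pdgfrb* on the same strand, and this neighbour rose 9.81-fold. The sort selected on eGFP from a transgene with the *Pdgfrb* promoter and not on this gene itself. *Hmgxb3*, which overlaps exons of *Csf1r* on the opposite strand, had 18.7 to 19.7 FPKM in the fragments and 12.1 to 16.2 in the mural cells.

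*Cx3cr1*, the fractalkine receptor, had 176, 211 and 263 FPKM in the fragments and 16.3, 19.0 and 13.3 in the mural cells. No library of either group came near the other, and limma put the log2 difference at -3.66 (standard error 0.19; adjusted p = 8.36e-05). It has a single annotated transcript, so its FPKM could be turned back into read pairs: 2842, 3154 and 4325 in the fragments and 102, 50 and 37 in the mural cells. With the depths taken into account, the pooled mural cell level was 7.45% of the fragments, with an exact 95% interval of 6.42% to 8.61% that covers counting error only.

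The purinergic receptors sense nucleotides released by injured or active cells. *P2ry12*, the ADP receptor that guides microglial processes, had 76.4, 108 and 95.3 FPKM against 5.64, 9.89 and 8.68 (8.67%). Its neighbour *P2ry13*, which lies 5.39 kb away on chromosome 3 and also responds to ADP, fell further, from 40.6, 51.2 and 59.8 to 1.94, 1.16 and 1.64 FPKM (3.12%). In read pairs the *P2ry13* values were 431, 505 and 647 against 8, 2 and 3, so the mural cell level rests on 13 read pairs in all and its exact interval runs from 1.78% to 5.74%. Both genes lie in introns of *Med12l*, on the opposite strand, a gene with 0.945 to 3.76 FPKM over the 6 libraries. *P2ry6*, a UDP receptor linked to phagocytosis, had 22 to 29.4 FPKM against 1.55 to 3.57 (9.24%), the latter from 16 read pairs over the 3 mural cell libraries. *Gpr34*, a receptor for lysophosphatidylserine, had 33.9 to 58.5 FPKM against 4.03 to 6.40 (10.2%), while *Cask*, in an intron of which it lies on the opposite strand, had 33.6 to 43.4 FPKM in the fragments and 68.9 to 78.5 in the mural cells. *Csf3r*, the receptor for G-CSF, had 24.6, 31.2 and 36.2 FPKM against 2.58, 2.32 and 6.90. Its relative level of 12.8%, the highest of the 7, rests on mural cell replicate 3 and was 7.98% without it.

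The 7 genes of ITAM adaptors and immune receptors fell as well, to a median of 8.48%. *Tyrobp* encodes DAP12, the signalling partner of TREM2, and had 141, 153 and 190 FPKM in the fragments. In the mural cells it had 12.6, 0 and 10.5 FPKM, or 8, 0 and 3 read pairs. The library at 0 sets the size of the fitted change: limma put the log2 difference at -4.90 (standard error 0.91; adjusted p = 0.00856) with all libraries, -3.69 without mural cell replicate 2, and -5.57 without mural cell replicate 1. With a pseudocount of 0.1 the adjusted p of *Tyrobp* was 0.0539. Its relative level by mean FPKM was 4.77%, and the pooled read pairs gave 5.69% with an exact interval of 2.83% to 10.2%. The transcript of *Tyrobp* has 564 bases, below the 1000 bases required of genes used to set the step size. Its largest distance from a whole number was 0.0536, just outside the limit of 0.05, so its read pairs are less certain.

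*Trem2*, a lipid-sensing receptor of phagocytes, had 85.5, 79.9 and 160 FPKM in the fragments and 7.0, 5.18 and 15.7 in the mural cells. In both groups replicate 3 was the highest, and the groups did not overlap (log2 fold change -3.47, standard error 0.41, adjusted p = 0.00123, limma). Its relative level was 8.57%, and 5.61% without mural cell replicate 3. *Fcrls*, an Fc receptor-like gene used as a microglia marker in mice, was the most abundant of these 7 in the fragments. It had 178, 174 and 220 FPKM there against 16.3, 26.8 and 25.9 in the mural cells (12.1%). *Siglech*, a sialic acid-binding lectin, had 70.0 to 103 FPKM against 7.60 to 9.07 (9.56%). The Fc receptor genes *Fcgr3* and *Fcgr1* had 86.5 to 108 and 19.3 to 32.8 FPKM in the fragments and were at 8.48% and 6.28%. *Fcgr1* was listed at 0 in mural cell replicate 2, and its log2 fold change of -3.56 became -2.95, and its relative level 9.42%, without that library. *Fcgr3* belongs to a family of closely similar genes, and how reads shared between them were divided is not given in the sources used here. *Fcer1g*, the common adaptor of Fc receptors, fell from 86.0, 77.0 and 69.0 FPKM to 6.01, 2.83 and 2.68 (4.96%).

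Of the 6 genes for pattern recognition and clearance, 5 fell and *Tlr4* was not called. The median relative level was 13.1%. *Cd14*, the co-receptor that hands lipopolysaccharide to TLR4, had 47.1, 29.7 and 43.7 FPKM in the fragments and 0.824, 0 and 0 in the mural cells. Its relative level by mean FPKM was 0.684%. These are 296, 173 and 279 read pairs against 2, 0 and 0, which put the pooled mural cell level at 1.09% of the fragments with an exact interval of 0.132% to 3.96%. *Tlr4* itself, on chromosome 4 (66488618 to 66591318, NCBIM37), behaved otherwise: it had 8.47, 10.9 and 10.7 FPKM in the fragments and 8.65, 12.9 and 13.9 in the mural cells, and the libraries of the groups overlapped. Its log2 fold change was 0.20, with a 95% confidence interval of -0.35 to 0.76 (adjusted p = 0.585, limma). It was the least abundant of the 48 genes in the fragments. *Ly96*, which encodes MD-2, the third member of that receptor complex, had 9.60, 6.36 and 9.01 FPKM against 2.83, 0 and 3.16 and was not called (adjusted p = 0.0504, limma).

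The other Toll-like receptors on the list fell. *Tlr2*, a receptor for bacterial lipoproteins, had 46.9, 19.2 and 46.1 FPKM in the fragments, the largest coefficient of variation of the 48 genes there (42.2%), and 0.802, 1.43 and 2.71 in the mural cells (4.41%). *Tlr7*, an endosomal receptor for single-stranded RNA, had 34.1, 46.7 and 44.4 FPKM against 5.19, 9.98 and 9.52 (19.7%). The level of *Ly86*, which encodes the MD-1 partner of RP105, was 63.8 to 96.4 FPKM against 4.27 to 6.73 (6.38%). *Mertk*, a receptor tyrosine kinase for the uptake of dying cells, had 46.0, 54.7 and 62.3 FPKM against 13.5, 14.7 and 16.7. At 27.5% it lay well above the median of the 48 genes, and its difference was still far outside the spread of the replicates (log2 fold change -1.79, standard error 0.16, adjusted p = 0.000388, limma).

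Of the 9 genes for surface, adhesion and secreted proteins, 8 fell and *Olfml3* was not called, and the median of 5.58% was the lowest of the 8 roles. *Itgam* and *Itgb2* encode the subunits of the integrin CD11b/CD18. *Itgam* had 79.0, 84.6 and 96.6 FPKM against 6.50, 3.10 and 19.0, and without mural cell replicate 3, which holds the highest of these values, its relative level was 5.54% in place of 11%. *Itgb2* had 36.6, 43.6 and 44.7 FPKM against 9.30, 2.42 and 3.21, and its relative level was 6.76% without mural cell replicate 1, the highest, in place of 12%. *Tmem119*, a membrane protein used to mark microglia, had 37.6, 44.8 and 35.1 FPKM against 2.49, 4.60 and 3.73 (9.21%), and *Selplg*, the P-selectin ligand that lies 17.3 kb away on chromosome 5, had 29.7, 32.7 and 27.2 against 2.60, 0 and 1.68 (4.78%, and 2.82% without mural cell replicate 1). The pan-leukocyte gene *Ptprc* (CD45) had 25.9 to 32.1 FPKM against 1.22 to 2.21, and the tetraspanin gene *Cd53* 25.1 to 31.9 against 0.976 to 1.73. For *Cd53* the mural cell values rest on 8, 2 and 2 read pairs, where the fragments gave 298, 285 and 386. The costimulatory gene *Cd86* had 54.7 to 64.0 FPKM against 0.574 to 4.04 (4.11%).

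*Slc2a5*, the fructose transporter GLUT5, was listed at 0 in all 3 mural cell libraries. It had 11.9, 11.7 and 14.4 FPKM in the fragments. It was called lower, but a gene at 0 throughout a group has a fitted fold change that depends on the pseudocount, and it has several transcripts, so that no number of read pairs was recovered. Without it the median relative level of the remaining genes was 9.21%. *Olfml3*, a secreted matrix protein gene on chromosome 3 (103537623 to 103541924, NCBIM37), had 36.7, 22.1 and 23.2 FPKM in the fragments and 16.4, 13.9 and 17.1 in the mural cells. Every mural cell library was below every fragment library, but the relative level was 57.7% and the log2 fold change -0.72 (95% confidence interval -1.24 to -0.21, adjusted p = 0.0547, limma).

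The 9 intracellular signalling genes had the widest range, from 4.90% for *Vav1* to 256% for *Adap2*. Among those that fell, the Src family kinase gene *Lyn* had 104, 98.1 and 105 FPKM against 45.2, 37.6 and 40.8. Its relative level of 40.2% was the highest of all 45 lower genes, just past the fold limit, while its replicates were tight in both groups (log2 fold change -1.30, standard error 0.11, adjusted p = 0.000363, limma). *Inpp5d*, the lipid phosphatase SHIP1 that opposes PI3K signalling, followed with 31.4%. *Syk*, the kinase recruited by ITAM adaptors, had 39.5 to 52.9 FPKM against 7.37 to 9.95 (18.4%), and *Coro1a*, an actin-binding protein of leukocytes, had 77.1 to 99.3 against 5.59 to 17.5 (13.2%). All 4 of these genes fell, and their mural cell libraries stayed below every fragment library. *Aif1* encodes IBA1, the protein most used to stain microglia, and had 39.3, 35.6 and 39.6 FPKM against 4.38, 0 and 5.37. The fitted log2 fold change of *Aif1* was -3.59 (standard error 0.66; limma, adjusted p = 0.00779), -2.74 without mural cell replicate 2, and with a pseudocount of 0.1 its adjusted p was 0.0613. *Apbb1ip*, an adaptor of integrin activation, had 26.7 to 29.2 FPKM in the fragments and 1.46, 1.33 and 5.49 in the mural cells, or 9.79%, and 4.94% without mural cell replicate 3. *Dock2*, an activator of Rac in blood cells, had 48.9, 43.8 and 53.2 FPKM against 2.40, 2.38 and 2.45 (4.95%).

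*Adap2*, on chromosome 11 (79967607 to 79992460, NCBIM37), encodes an ArfGAP that binds phosphoinositides and was the only gene of the 48 that rose. It had 56.1, 58.1 and 54.1 FPKM in the fragments and 131, 192 and 108 in the mural cells. The groups did not overlap, the ratio of means was 2.56 and the log2 difference 1.30 (standard error 0.20, adjusted p = 0.00395, limma). It was the most abundant of the 48 genes in the mural cells, where its mean ranked 369 among all genes tested, and ranked 22 of the 48 in the fragments. The paper lists *Adap2* in its catalogue of brain mural cell-enriched genes, which was drawn in part from these same libraries. The same catalogue holds *Il34* and *Axl*, which are described below. The exons of *Gm11206*, a processed transcript on the opposite strand, overlap those of *Adap2*. *Gm11206* had 3.05, 6.29 and 5.47 FPKM in the fragments and 18.8, 10.3 and 6.48 in the mural cells, below the *Adap2* value in every library.

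Both NADPH oxidase subunit genes fell. *Ncf1*, which encodes the cytosolic subunit p47phox, had 52.5, 51.1 and 70.1 FPKM against 3.58, 2.13 and 4.03 (5.61%), and *Cybb*, which encodes the membrane subunit NOX2, had 15.2, 10.6 and 9.69 against 2.79, 0 and 0.558. The relative level of *Cybb*, 9.45%, rests on mural cell replicate 1 and was 2.36% without it. *Gtf2ird2*, whose exons overlap those of *Ncf1* on the opposite strand, had 7.26 to 9.75 FPKM in the fragments and 6.17 to 7.62 in the mural cells. Of the 3 lysosomal genes, *Ctss* and *Laptm5* ranked 2 and 3 of the 48 in the fragments, and *Cd68* ranked 15. The protease gene *Ctss* (cathepsin S), on chromosome 3 (95330708 to 95360325, NCBIM37), had 336, 356 and 405 FPKM against 33.3, 41.8 and 31.9 and the smallest adjusted p of the 48 genes (log2 fold change -3.33, standard error 0.14, adjusted p = 5.39e-05, limma). *Laptm5*, a lysosomal membrane protein of blood cells, had 211, 235 and 269 FPKM against 24.9, 15.4 and 19.0, and *Cd68*, a glycoprotein of the macrophage lysosome, had 79.1, 83.4 and 95.2 against 5.49, 2.61 and 4.72 (4.97%).

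The replicates of the fragments differed in a shared way. Fragment replicate 3 was the highest of the 3 for 32 of the 48 genes (66.7%), against 31.4% of all genes tested, and its median was 111% of the gene's mean over the fragments, against 98.5% for all genes tested. In the same library the summed FPKM was the lowest of the 3 fragment libraries for the mural markers (380, against 578 and 549) and for the endothelial markers (2427, against 2848 and 2818), and the part of these in the result was not tested. Within the mural cells no library was the highest for most genes: replicates 1, 2 and 3 led in 18, 13 and 16 of the 48, and *Slc2a5*, at 0 in all 3, has no leading library. The median relative level was 8.48% for mural cell replicate 1, 6.23% for replicate 2 and 8.61% for replicate 3. The median coefficient of variation was 14.1% in the fragments and 32.1% in the mural cells, which also were the shallower libraries. With mural cell replicate 3 left out, the library with the high astrocyte markers, all 45 genes were still lower and the median relative level was 8.24%.

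**Figure D3:**
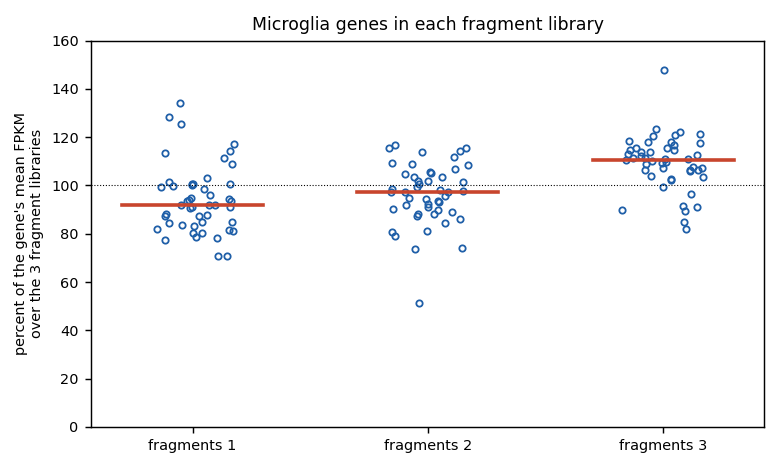
FPKM of each of the 48 genes in each fragment library as a percent of the gene's mean over the 3 fragment libraries, with 1 circle per gene, the median as a red line and a dotted line at 100%. The medians are 92.0%, 97.3% and 111% for replicates 1, 2 and 3.

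Other genes of the same cells gave similar values. Of 44 further microglia and myeloid genes, 41 fell, none rose and the median relative level was 9.91%. Among the 41, *Blnk* and *Lpxn* passed the filter through the fragments alone. Abundant ones among them were *Lgmn* (22.8%), a lysosomal protease, and *C1qb* (7.08%), a chain of complement C1q. The 3 that were not called were *Slco2b1* (58.9%), which encodes an organic anion carrier, *Cyba* (51.6%), which encodes the partner subunit of NOX2, and *Arhgdib* (106%). Fragment replicate 3 was the highest fragment library for 37 of the 44 genes. All 8 perivascular macrophage markers fell, to a median of 9.60%, which was 6.04% without mural cell replicate 1. They included *Stab1* (151, 181 and 227 FPKM against 54.8, 43.0 and 50.5), *Mrc1* (52.6, 83.4 and 86.5 against 9.07, 5.22 and 4.43) and *F13a1*. These markers were thus well above 0 in the fragments, and the share of the 48 genes' signal that came from each kind of macrophage was not measured.

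Of the 11 blood leukocyte markers, 3 passed the filter. The granulocyte genes *S100a8* (32.7, 21.3 and 13.2 FPKM in the fragments, listed at 0 in all mural cell libraries) and *S100a9* (60.6, 22.9 and 18.4 against 1.83, 0 and 4.07) fell, and *Cd79a* was not called. *S100a8* passed the filter through the fragments alone, so its call could only be lower. The T cell genes *Cd3e* and *Cd3g* and the natural killer cell gene *Nkg7* were listed at 0 in all 6 libraries. Markers of the other cell types did not share the size of the difference: the median relative level was 136% for 8 astrocyte, 113% for 8 oligodendrocyte lineage, 51.1% for 7 neuron and 97.1% for 5 erythroid genes that passed the filter. The astrocyte value rests on mural cell replicate 3 and was 80.2% without it. In these lists *Mbp*, a myelin gene, was the only gene called (25.3%).

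**Figure D4:**
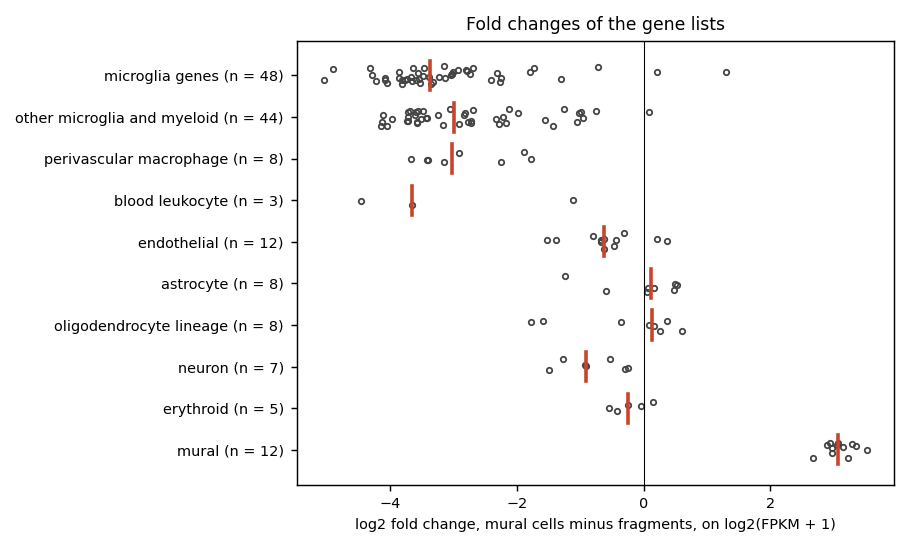
Log2 fold change (mural cells minus fragments, on log2(FPKM + 1)) of every tested gene in 10 lists, with 1 circle per gene, n genes per list and the median as a red line. The microglia genes, the other microglia and myeloid genes and the perivascular macrophage genes have medians of -3.38, -2.99 and -3.03, the endothelial genes -0.62 and the mural genes 3.07.

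Ligands, co-receptors and adaptors that act with the receptors on the list were examined next, since they can be made by other cells of the vessel. Of 26 such genes, 24 passed the filter, 9 fell, 2 rose and 13 were not called. Of all genes tested, 10.1% were lower and 6.43% higher, so 2 risen genes in a list of this size are not unusual. Their median relative level was 62.4%. The ligands of CSF1R moved in opposite directions. *Il34* had 5.48, 6.97 and 5.67 FPKM in the fragments and 50.3, 87.7 and 39.1 in the mural cells, and no library of the groups overlapped. It was 9.78-fold higher (log2 fold change 3.02, standard error 0.29, adjusted p = 0.000516, limma). *Csf1* had 61.9, 67.5 and 99.9 FPKM against 33.4, 40.6 and 31.2, or 45.9% (log2 fold change -1.08, standard error 0.20, adjusted p = 0.00889, limma). Its call rests on fragment replicate 3: without that library the log2 fold change was -0.87 and the ratio no longer passed the fold limit.

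*Mertk* belongs to the TAM receptors, with *Axl* and *Tyro3*. The bridging ligands of this family are encoded by *Gas6* and *Pros1*, and not every receptor need use both. While *Mertk* fell, *Axl* rose, from 63.8, 41.9 and 69.0 FPKM in the fragments to 216, 302 and 253 in the mural cells (4.41-fold, log2 fold change 2.14, standard error 0.21, adjusted p = 0.000574, limma). *Tyro3* had 5.04, 4.26 and 3.14 FPKM against 3.62, 6.90 and 17.6 and was not called. *Gas6* fell, from 74.4, 91.9 and 100 to 17.9, 24.7 and 23.3 FPKM (24.7%), and *Pros1* was at similar values in both groups, 59.5, 60.3 and 72.2 against 63.7, 68.4 and 50.7, with a log2 fold change of -0.07 and a 95% confidence interval of -0.43 to 0.28.

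*Cx3cl1*, which encodes fractalkine, the ligand of CX3CR1, had 10.8, 10.2 and 8.87 FPKM in the fragments and 8.6, 6.03 and 2.2 in the mural cells, and was not called (log2 fold change -0.86, 95% confidence interval -1.81 to 0.08, adjusted p = 0.176, limma). The integrin ligands *Icam1* and *Icam2* fell to 17.8% and 40.9%, and *Icam1* varied widely within the fragments, with 182, 61.0 and 112 FPKM. *Apoe*, a lipid carrier that binds TREM2, fell from 526, 712 and 516 to 155, 114 and 276 FPKM (31.1%). The signalling genes *Plcg2* (6.78%), also counted among the further microglia genes, and *Card9* (18.6, 22.6 and 19.0 FPKM against 1.81, 0 and 0), the receptor gene *Tgfbr1* (26.0%) and *Sirpa* (24.2%), which encodes the receptor for CD47, fell. *Tgfb1*, *Tgfbr2*, *Cd47*, *Cd200*, *Cd200r1*, *Myd88*, *Ticam1*, *Grb2* and *Pik3r1* were not called. *Csf3* and *Selp* did not pass the filter and were listed at 0 in all mural cell libraries.

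**Figure D5:**
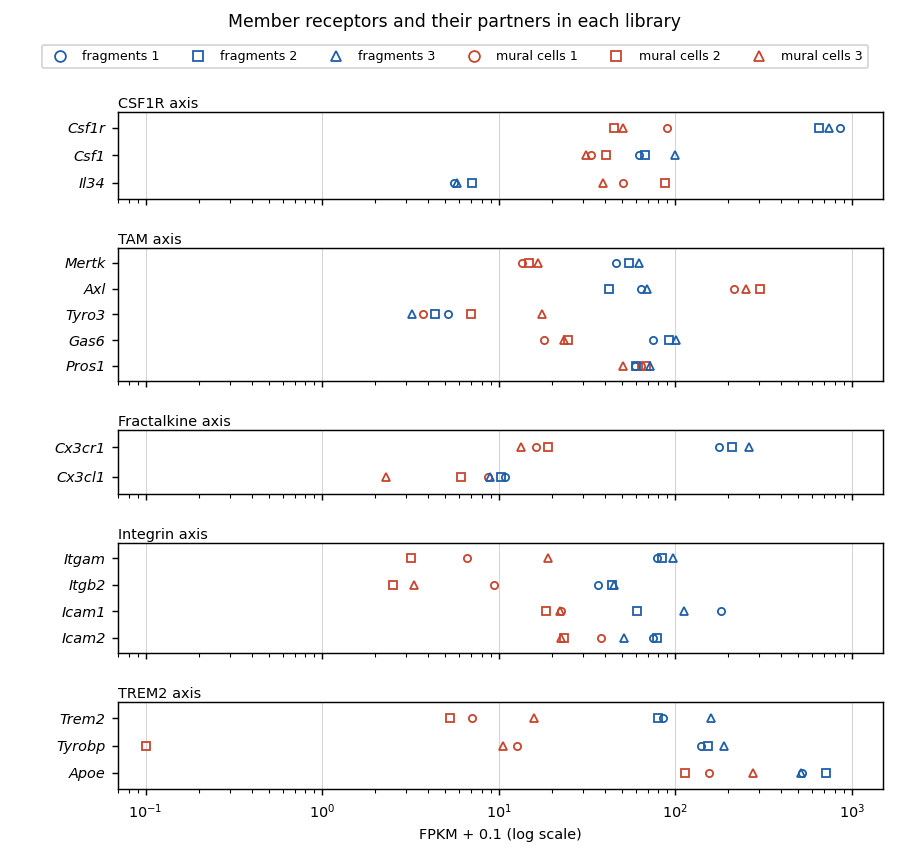
FPKM + 0.1 (log scale) of receptors on the list and their partners in the 3 fragment libraries (blue) and the 3 mural cell libraries (red). *Il34* and *Axl* lie to the right in the mural cells, with 39.1 to 87.7 and 216 to 302 FPKM, while *Csf1r*, *Mertk*, *Cx3cr1*, *Itgam*, *Itgb2* and *Trem2* lie to the left.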

How the data were processed

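RNA-seq was performed on 3 libraries of FACS sorted mural cells and 3 libraries of microvascular fragments. The authors deposited 1 table of FPKM values per library. Per the submitters' processing notes and the methods, reads were aligned to NCBIM37 with TopHat2 2.0.4, duplicated reads were removed with Picard 1.92 and FPKM were computed with Cufflinks 2.2.1. The scaling between libraries and the strand setting are not given in the sources used here. Removal of duplicates can lower the values of abundant genes.

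Symbols and positions are those of GENCODE for NCBIM37. In R 4.3.3, limma 3.58.1 with a trend on intensity was run on log2(FPKM + 1) of the 14801 genes with at least 1 FPKM in at least 3 of 6 libraries. Genes were called at a Benjamini-Hochberg adjusted p under 0.05 and a ratio of mean FPKM above 2 or under 0.5. For genes with a single transcript, read pairs were recovered from the FPKM steps, and 97.8% to 98.4% of low values came out whole within 0.05. Exact binomial intervals on them cover counting error only. Other steps used Python 3.11.15, pandas 2.3.3, NumPy 2.4.6 and SciPy 1.17.1.

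The 48 genes, the other lists and the tests were chosen with earlier results of these data known. Genes were named by role for the highest fragment mean, for a missing call, a value of 0 in all mural cell libraries or an extreme relative level, with the called partners, the direct ligands and the most abundant genes of the other lists, of which 1 is not reported here. Further genes were named to account for all 48. Of 45 further microglia and myeloid genes listed, *Bin2* could not be matched. Both preparations came from the same 3 brains, but which replicate numbers came from the same animal is not stated. The numbers were therefore not treated as pairs in the main fit. The deviations of libraries with the same number correlated at 0.082, 0.020 and 0.045, and those with different numbers at -0.061 to 0.010. Values this small do not settle which libraries pair. Alternatives were the replicate number as a block, quantile normalization, median-ratio scaling, a pseudocount of 0.1, no trend, no filter, a filter at 5 FPKM, leaving out genes at 0 throughout a group, limma's fold change as the limit, and leaving out each library.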

Additional observations from a re-analysis of the deposited data

How the results depend on the processing

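The call of *Adap2* as higher held under every alternative run, and the number of the 48 genes called lower stayed between 43 and 45. The losses were *Tyrobp* and *Aif1* with a pseudocount of 0.1, *Slc2a5* where genes at 0 throughout a group were left out, and *Cd14* and *Slc2a5*, which did not pass the filter, where 1 fragment library was left out. No called value of the genes named reversed its direction, while *Pros1*, not called at a log2 fold change of -0.07, ranged from -0.16 to 0.05. The median relative level was 8.24% to 9.44%. The number of all genes lower in mural cells was 948 with a filter at 5 FPKM and 607 to 1733 when each library was left out in turn, with all 3 values below 1000 from leaving out a fragment library. Without 1 fragment library, a gene must pass the filter in at least 1 mural cell library. All genes higher in mural cells numbered 691 to 949 in the same way, the further microglia and myeloid genes 34 to 41 and the called partners 10 to 13.

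With the replicate number as a block, 1344 genes were lower and 900 higher, 45 of the 48 genes were lower and 1 was higher. The block changed no call among the 48. Every library correlated best with the library of its own number in the other group, a hint from the data and not from the design. The shallow mural cell libraries limit what can be said of genes under a few FPKM there: *Cd14*, *P2ry13* and *Tlr2* rest on 2, 13 and 13 read pairs over the 3 mural cell libraries.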
